A study of Rattus norvegicus with 42 samples.

Results

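Elongating RNA polymerase II in rat liver was compared between the peak of a corticosterone (CORT) pulse and the nadir 40 min later. The members were the 2 chromatin immunoprecipitation (ChIP) libraries of PEAK_140 and the 2 of NADIR_180, which are 4 of the 42 libraries in the series. Of 60999 coding regions with a pSer2 Pol2 value, the 38315 with a non-zero value in any of the 10 pSer2 Pol2 libraries were tested, and these belonged to 16568 of 26426 genes. All rats were male Sprague Dawley rats without adrenal glands, so that circulating CORT came from the infusion. CORT bound to a cyclodextrin carrier (CORT-HBC, 0.0035 g in 1 ml) was infused into a vein for 3 h.

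PEAK_140 livers were taken at 140 min, at the end of the third 20 min pulse, and NADIR_180 livers at 180 min, 40 min after that pulse had ended. CONS_140 and CONS_180 livers were taken at the same times during a constant infusion with the same hourly dose. VEH livers received pulses of vehicle, and 1 of the 2 VEH libraries was taken at 140 min and the other at 180 min, so that a VEH mean spans both times. Each ChIP library pooled the livers of 6 rats, and peak and nadir livers came from different rats. The libraries are of whole liver, in which fewer cells of a type and less polymerase per cell cannot be told apart.

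The glucocorticoid receptor (GR) is a nuclear receptor that binds DNA when occupied by CORT and releases it when the hormone is withdrawn. In intact animals CORT is secreted in roughly hourly pulses, and liver answers it with enzymes that turn amino acids into glucose and dispose of the nitrogen as urea. Polymerase that has left the promoter and is making RNA carries phosphate on serine 2 of the repeats in its tail (pSer2 Pol2), so that ChIP for this form over a gene body reads transcription under way, ahead of any change in the amount of mature mRNA.

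Values are given in log2 units after subtraction of input DNA, and values of regions with few tags were drawn towards the mean of the region, which understates their fold changes. A region ran from the transcription start site (TSS) to at most 10 kb downstream on the rn6 genome. Libraries held 5666339 and 6421773 tags for PEAK_140 and 5952158 and 6704747 for NADIR_180, and 4938473 to 9326927 over all 10. The mean value of 9 hepatocyte markers was 11.19 to 11.26 at PEAK_140 and 11.01 to 11.13 at NADIR_180, that of 9 Kupffer cell and leukocyte markers 2.83 to 2.99 and 2.91 to 3.02, and that of 10 endothelial and stellate cell markers 2.02 to 2.11 and 2.11 to 2.19. All 5 cholangiocyte and erythroid markers tested (Krt19, Epcam, Sox9, Alas2 and Hbb) lay below the median over all genes. None of the markers of cells other than hepatocytes was called by limma, and none had an unadjusted p below 0.05. Of the 9 hepatocyte markers 5 had an unadjusted p below 0.05 in limma, and Cps1 was called higher at PEAK_140. Their changes ranged from -1.11 to 1.29, so that their mean covers shifts in both directions. Among genes at or above the median of mean values, the median change from nadir to peak was -0.26 on the log2 scale, and a list of 11 housekeeping genes had a mean value of 5.41 to 5.45 at PEAK_140 and 5.81 to 6.04 at NADIR_180. Quantile normalization moved that median change to 0. All 84 called genes kept their sign, which says little because their changes were 1.28 or more in size. In the same regions 75 of them stayed called and 9 did not.

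The promoters of Upp2, which encodes uridine phosphorylase, and Tdo2 are shown because both genes carried more pSer2 Pol2 at the peak and had a PEAK_140 GR peak close to their only tested start. Each sequence was matched by symbol and is the 250 bases before the TSS in RefSeq on GRCr8, 5′ to 3′ on the strand of the gene. Upp2 lies on the plus strand at chr3:63681576-63681825 and Tdo2 on the minus strand at chr2:169585587-169585836. Capitals mark matches to the GR hexamer (TGTTCT or its reverse complement AGAACA) and to the core of a GR response element (ACANNNTGT).
Upp2: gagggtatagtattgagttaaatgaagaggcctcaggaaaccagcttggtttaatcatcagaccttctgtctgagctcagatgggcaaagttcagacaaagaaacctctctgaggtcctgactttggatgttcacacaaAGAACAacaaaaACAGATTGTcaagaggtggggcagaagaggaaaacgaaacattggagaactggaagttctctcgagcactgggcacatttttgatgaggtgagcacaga
Tdo2: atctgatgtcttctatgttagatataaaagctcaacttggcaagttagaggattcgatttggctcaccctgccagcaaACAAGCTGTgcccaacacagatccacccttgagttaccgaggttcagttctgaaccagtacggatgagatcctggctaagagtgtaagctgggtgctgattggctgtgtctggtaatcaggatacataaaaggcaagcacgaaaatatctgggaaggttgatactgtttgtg
In Upp2 the hexamer began 111 bases and the core 99 bases before the TSS, and in Tdo2 the core began 172 bases before it.

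The peak and nadir differed at 84 genes, which is 0.507% of genes tested, when a call required a Benjamini-Hochberg adjusted p below 0.05 from limma and a change above 1.5-fold. pSer2 Pol2 occupancy was higher at PEAK_140 at 43 genes (0.26% of genes) and lower at 41 (0.247%). The higher genes differed by a median of 2.31 on the log2 scale (range 1.28 to 5.70), or 4.96-fold (2.43-fold to 51.9-fold). The lower genes differed by a median of -2.41 (range -3.94 to -1.54), or 5.31-fold (2.9-fold to 15.3-fold). Both PEAK_140 libraries lay on one side of both NADIR_180 libraries at all 84 genes, where 31.7% of all genes tested showed such separation. The median SD within a pair was 0.19 at PEAK_140 and 0.17 at NADIR_180 over the higher genes, and 0.30 and 0.14 over the lower genes. A small spread beside these changes follows in part from the calls, which weigh change against spread in these libraries. Over all genes tested, whose median mean value was only 2.35, the median SD was 0.01 and 0.1.

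These calls draw on the spread of all 5 groups, because 2 libraries per group give little information on their own. With only the 4 peak and nadir libraries in the fit limma called 0 genes, although 5134 regions had an unadjusted p below 0.05. With either PEAK_140 replicate 1 or NADIR_180 replicate 1 left out it called 1 gene, with PEAK_140 replicate 2 left out 44 and with NADIR_180 replicate 2 left out 100.

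**Figure D1:**
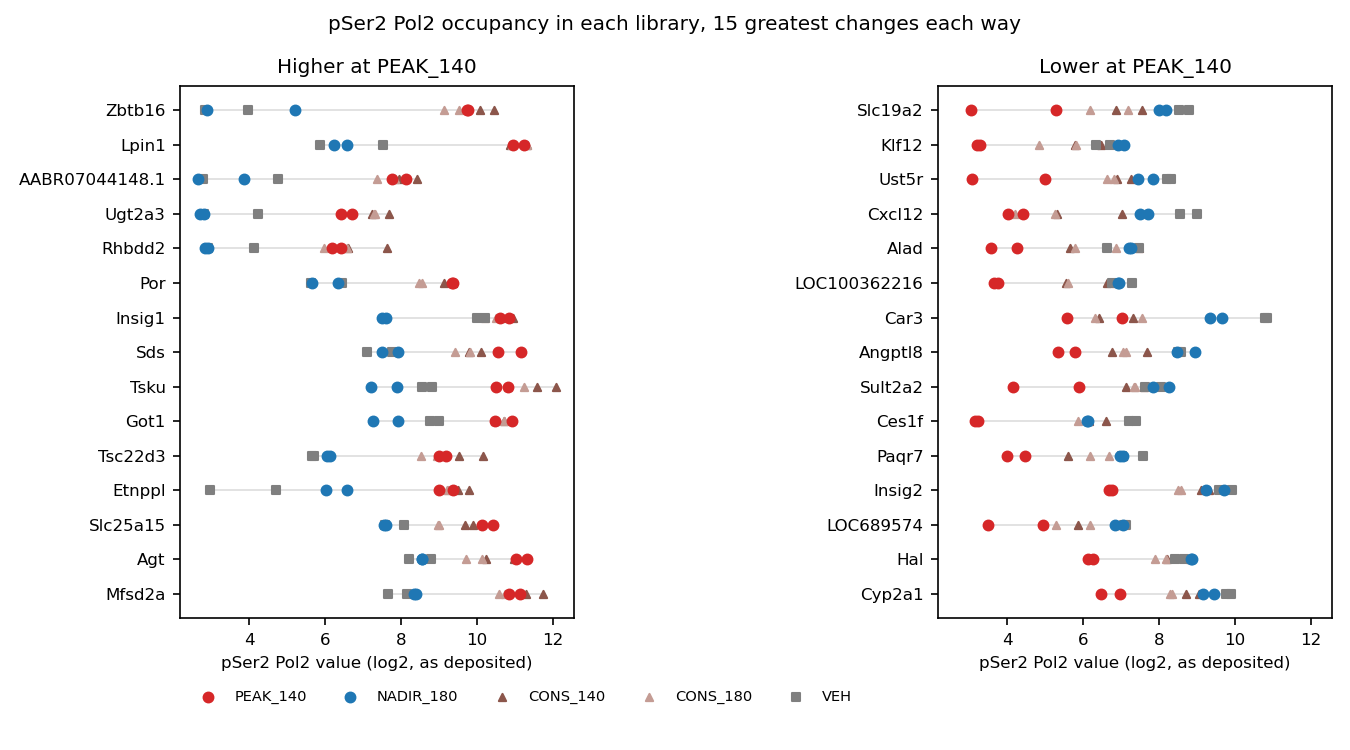
pSer2 Pol2 values (log2, horizontal axis) of the 15 genes with the greatest increase (left) and decrease (right) at PEAK_140 against NADIR_180, with 1 symbol per library and 2 libraries per group. The 2 red PEAK_140 points of each gene lie on one side of the 2 blue NADIR_180 points, and the libraries of 1 group lay far apart for Zbtb16 (NADIR_180, 5.21 and 2.89) and Slc19a2 (PEAK_140, 3.03 and 5.28).

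Established targets of GR were among the genes with the greatest increases, Zbtb16 and Lpin1 ahead of all others. Zbtb16, which encodes a zinc finger repressor (PLZF), read 9.77 and 9.73 at PEAK_140, 5.21 and 2.89 at NADIR_180 and 3.96 and 2.84 in VEH over chr8:53136953-53146953. It was thus 51.9-fold higher at the peak (log2 change 5.70 ± 0.63 SE, limma adjusted p = 0.00301) although its 2 nadir libraries lay far apart. Lpin1, which encodes a phosphatidate phosphatase of triglyceride synthesis and coactivator of fat oxidation genes, read 11.24 and 10.95 at the peak, 6.57 and 6.22 at the nadir and 7.53 and 5.85 in VEH over chr6:41832817-41842817. The change was 4.71 ± 0.47 (limma adjusted p = 0.00301), and the nadir libraries lay within the range of the VEH libraries.

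Tsc22d3 encodes GILZ, a leucine zipper protein that mediates anti-inflammatory effects of the hormone. It read 9.18 and 8.99 at the peak against 6.04 and 6.12 at the nadir, a change of 3.00 ± 0.33 (limma adjusted p = 0.00301). The list of established GR targets was written with earlier results of these data known, so it gives no independent support. Of 26 targets tested, 6 were called, all of them higher at PEAK_140 (Zbtb16, Lpin1, Sds, Tsc22d3, Tdo2 and Tat), beside 0.26% of all genes. A change above 0 was seen at 25 of the 26, beside 38.7% of all genes tested, and the changes of Mt1 and Ddit4 rounded to 0. The median change over these targets was 0.93, beside -0.083 over all genes tested.

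Targets that were not called included Per1, a clock gene with a GR response element, and Fkbp5, a cochaperone of GR. Per1 read 7.17 and 6.76 at the peak, 6.38 and 5.52 at the nadir and 4.79 and 3.03 in VEH, a change of 1.02 ± 0.56 (limma adjusted p = 1), so that both nadir libraries stood above both VEH libraries. Fkbp5 read 5.64 and 5.61 against 4.43 and 5.13. Errfi1, a feedback inhibitor of the EGF receptor, and Dusp1, a phosphatase of MAP kinases, had changes of 0.75 and 1.07 with non-overlapping libraries and limma adjusted p values of 0.175 and 0.423.

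Enzymes that break down amino acids held the most called genes of the lists examined, and this list was also the largest. Of 32 tested, 7 were called higher and 1 lower, with a median change of 0.13. Over all genes tested 0.26% were called higher and 0.247% lower, which is the background for each list in this report. Shares called among genes at or above the median of mean values, where calls are easier to reach, were not computed. Sds, Tat and Tdo2 among them were counted with the GR targets as well. Sds, serine dehydratase, which makes pyruvate from serine, read 11.16 and 10.56 at the peak, 7.93 and 7.49 at the nadir and 7.75 and 7.09 in VEH (change 3.15 ± 0.36, limma adjusted p = 0.00301). Got1, the cytosolic aspartate aminotransferase, read 10.92 and 10.48 at the peak, 7.92 and 7.27 at the nadir and 9.0 and 8.75 in VEH, so that its nadir libraries stood below both VEH libraries.

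Tat, tyrosine aminotransferase, read 12.80 and 12.56 against 11.37 and 11.44. Its change of 1.28 ± 0.20 was the smallest among the higher genes (limma adjusted p = 0.016). Tdo2, which opens the indole ring of tryptophan, read 11.90 and 12.15 against 10.41 and 10.48 over chr2:180904940-180914940, and its 2 nadir libraries stood above the VEH libraries at 9.73 and 9.81.

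Aass, which starts lysine breakdown, and Mat1a, which makes S-adenosylmethionine from methionine, changed by 2.22 and 1.48. Etnppl, which breaks down phosphoethanolamine and is grouped here for its relation to the aminotransferases, changed by 2.88. Etnppl also kept a raised value at the nadir, where it read 6.56 and 6.03 beside 4.71 and 2.97 in VEH.

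The exception was Hal, histidine ammonia-lyase, which was lower at the peak. It read 6.13 and 6.26 at PEAK_140 against 8.87 and 8.85 at NADIR_180 and 8.67 and 8.42 in VEH (change -2.66 ± 0.32, limma adjusted p = 0.00441). Amdhd1, an enzyme further down the same histidine pathway that lies within 100 kb of Hal, was lower as well, at 4.71 and 5.32 against 7.48 and 7.46. The region of Amdhd1 overlaps that of the opposing gene Ccdc38, which was also called, and reads of the 2 cannot be told apart.

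In the urea cycle 3 of 9 genes were called, all higher at the peak, beside 0.26% of all genes tested. Slc25a15, the mitochondrial ornithine carrier, read 10.41 and 10.12 against 7.56 and 7.59, Ass1, argininosuccinate synthase, 11.87 and 11.52 against 9.35 and 9.52, and Cps1, carbamoyl phosphate synthase, 11.47 and 11.70 against 10.31 and 10.27. Their changes were 2.69, 2.26 and 1.29. Otc, which joins carbamoyl phosphate to ornithine, was not called at 3.66 and 5.32 against 6.44 and 6.47 (limma adjusted p = 0.164).

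The enzymes that commit carbon to glucose were not among the called genes. Of 13 gluconeogenesis genes 2 were called, and these were the aminotransferase Got1 and Sds. Pck1, phosphoenolpyruvate carboxykinase, read 13.08 and 12.53 at the peak and 12.10 and 12.41 at the nadir (limma adjusted p = 0.839). G6pc, the catalytic subunit of glucose-6-phosphatase, read 11.17 and 10.74 against 11.09 and 11.91, and Slc37a4, the transporter that feeds it, 8.66 and 8.44 against 8.44 and 8.57. Their libraries overlapped between peak and nadir. Pfkfb1, the liver bifunctional enzyme that sets the level of an activator of glycolysis, was higher at the peak at 7.43 and 7.35 against 5.18 and 4.91.

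Sterol genes moved in both directions. Of 27 tested, 2 were called higher, Insig1 among them, and 2 lower (Insig2 and Sc5d), and the median change was -0.66. Insig1 and Insig2 encode related proteins that hold the sterol sensor SCAP, and with it SREBP, in the endoplasmic reticulum. Insig1 read 10.62 and 10.84 at the peak, 7.61 and 7.49 at the nadir and 10.22 and 10.01 in VEH, so that the nadir was the group that stood apart, 2.57 below VEH on the log2 scale (change 3.18 ± 0.27, limma adjusted p = 0.00248). Insig2 read 6.69 and 6.75 at the peak, 9.23 and 9.72 at the nadir and 9.93 and 9.59 in VEH, so that for this gene the peak stood apart (change -2.76 ± 0.31, limma adjusted p = 0.00301).

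Sc5d, which acts late in cholesterol synthesis, read 4.83 and 5.42 at the peak against 7.07 and 7.40 at the nadir, and its libraries did not overlap.

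Several genes of lipid handling were lower at the peak. Angptl8, a secreted inhibitor of lipoprotein lipase that is induced by feeding, read 5.35 and 5.78 at the peak, 8.48 and 8.94 at the nadir and 8.49 and 8.58 in VEH (change -3.14 ± 0.38, limma adjusted p = 0.00423). Gpam, which adds the initial fatty acid to glycerol phosphate, read 5.43 and 5.44 against 7.67 and 7.70, in 1 of its 3 distinct regions. Gk, glycerol kinase, read 5.11 and 5.65 against 7.43 and 7.86, and Acsl1, which activates long-chain fatty acids, 7.10 and 7.44 against 9.02 and 9.03. Acsl1 was called in 1 of its 2 distinct regions, and the other read 8.73 and 9.13 against 9.52 and 9.44. Mid1ip1, an activator of acetyl-CoA carboxylase, changed by -1.98.

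On the higher side were Mfsd2a, a transporter of lysophospholipids, at 11.14 and 10.85 against 8.38 and 8.35, and Hacl1, a peroxisomal enzyme of alpha oxidation, at 10.39 and 10.01 against 7.79 and 7.50. Of 21 fatty acid synthesis genes 1 was called higher (Lpin1) and 1 lower (Gpam), and of 26 fatty acid oxidation genes 1 was called lower (Acsl1). The median change was -0.15 and -0.53.

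Bile acid and drug handling genes were represented mainly by transporters and enzymes lower at the peak. Akr1d1, the reductase of bile acid synthesis, read 6.21 and 7.52 against 9.30 and 9.39, and Slco1b2, an organic anion uptake carrier, 6.47 and 6.23 against 8.37 and 8.75. These were the 2 called of 14 bile acid genes, whose median change was -0.66. Slc22a8, another organic anion carrier, changed by -2.55, Cyp2a1 by -2.60, Sult2a2 by -3.04, Gsta5 by -2.40 and Cyp3a18 by -1.83. Each of the last 4 belongs to a family with near-identical copies, between which short reads can be split, so that these values are less certain.

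Por, which passes electrons to all microsomal cytochromes P450, was higher at the peak instead. It read 9.37 and 9.34 at PEAK_140, 6.33 and 5.65 at NADIR_180 and 6.44 and 5.62 in VEH (change 3.37 ± 0.37, limma adjusted p = 0.00301), which put nadir and vehicle at one level. Its neighbour Rhbdd2, a rhomboid-like membrane protein gene within 100 kb, moved with it, at 6.17 and 6.42 against 2.91 and 2.84. Ugt2a3, a glucuronosyltransferase, changed by 3.82. Of 13 detoxification genes tested, 1 was called higher (Por) and 1 lower (Cyp2a1), with a median change of -0.41.

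A pair of heme synthesis genes differed in direction. Alas1, which encodes the rate-limiting enzyme of the pathway in liver, read 10.57 and 10.28 at the peak, 8.54 and 8.63 at the nadir and 9.57 and 9.36 in VEH. Alad, the next enzyme, read 4.25 and 3.58 at the peak, 7.25 and 7.20 at the nadir and 7.46 and 6.64 in VEH. The changes were 1.84 ± 0.28 and -3.31 ± 0.58 (limma adjusted p = 0.0145 and 0.0329). Alad was called in 2 of its 4 distinct regions, and the other changes were -1.51 and -0.84 (limma adjusted p = 0.206 and 0.831).

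Among genes for secreted proteins, Agt, the angiotensin precursor, read 11.33 and 11.04 against 8.55 and 8.54, and Tsku, a small proteoglycan released by liver, 10.83 and 10.51 against 7.89 and 7.21. Serpina3c and LOC299282, serpin genes within 100 kb of each other, changed by 1.94 and 2.24, and they belong to a family of close copies. Cxcl10, a chemokine, read 6.76 and 6.56 against 3.39 and 4.79, and Cxcl12, another, went the opposite way at 4.41 and 4.01 against 7.72 and 7.50. No change was called by limma among 26 genes for plasma proteins, with Alb at 13.47 and 13.07 against 12.58 and 12.62 (limma adjusted p = 0.367). Of these 26, 11 had an unadjusted p below 0.05 in limma. Over all genes, with 1 region per gene, 908 of 16568 had one. A fit of only the regions at or above the median of mean values gave 1831 such regions, beside 2098 over all regions. The 908 of 16568 is thus a low background for well occupied genes, whose own share per gene was not computed.

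The genes with the greatest decrease were Slc19a2, a thiamine carrier, and Klf12, a transcriptional repressor. Slc19a2 read 3.03 and 5.28 at the peak, 7.99 and 8.19 at the nadir and 8.79 and 8.52 in VEH (change -3.94 ± 0.62, limma adjusted p = 0.018), with its peak libraries far apart. Klf12 read 3.27 and 3.20 at the peak, 6.92 and 7.08 at the nadir and 6.71 and 6.34 in VEH over chr15:84738525-84748525 (change -3.76 ± 0.39, limma adjusted p = 0.00301). Another start of Klf12 downstream was not called, at 5.85 and 6.19 against 5.94 and 5.64, and the PEAK_140 GR peak nearest to the called start lies between these starts, 69235 b downstream of the called one. Car3, a carbonic anhydrase, read 5.58 and 7.03 against 9.66 and 9.34 and was lower in both groups than in VEH at 10.79 and 10.85.

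The other genes among the 15 greatest decreases were Ust5r at -3.62, LOC100362216 at -3.24, Ces1f, a carboxylesterase, at -2.93, Paqr7, a membrane progestin receptor, at -2.77 and LOC689574 at -2.72. Ces1f was called in 1 of 7 distinct regions. The others changed by -0.16 to 0.73 and were not called, so that its change belongs to 1 annotated start. In all, 13 of the higher and 15 of the lower genes had several distinct regions, of which all were called at 6 and 2 genes. By sign alone, 3 and 2 genes had an uncalled region of opposite sign. Those of Lpin1 and Ugt2a3 changed by only -0.02 and -0.11, at low values of 1.34 to 1.38 and 0.66 to 0.87.

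The higher genes not described singly included Adk, adenosine kinase, at 2.43, Edem1, which hands misfolded proteins to degradation, at 2.34, Sdc4, a membrane proteoglycan, at 1.85 and Slc25a25, a mitochondrial nucleotide carrier, at 1.67. The unannotated AABR07044148.1 changed by 4.68. The lower genes not described singly ranged from Gucy1b2, a guanylate cyclase subunit, at -2.51 to Pzp, a protease inhibitor of plasma, at -1.54, and among them were Idh1, the cytosolic isocitrate dehydrogenase, at -2.21 and Cat, catalase, at -1.71.

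Remaining list members that were called were Pik3r1, the regulatory subunit of PI 3-kinase, with a change of 1.91, and Slc38a2, a neutral amino acid carrier, with 1.72, both higher. Myc, the growth regulator, belongs to a list with no called gene and read 8.36 and 8.06 against 6.26 and 5.84 (change 2.16 ± 0.46, limma adjusted p = 0.0892). With the replicate number as a block Myc was called (limma adjusted p = 0.0125). The libraries of Myc did not overlap, and its nadir values lay beside those of VEH at 6.39 and 6.05. The immediate early genes Jun and Junb had changes of -0.89 and -0.72 (limma adjusted p = 0.631 and 1), and the clock genes Bhlhe40 and Nfil3 of -0.31 and -0.57 (limma adjusted p = 1). Medians of these lists were -0.19 over 22 and -0.37 over 19 genes. Of these, 2 and 4 had an unadjusted p below 0.05 in limma, beside 908 of all 16568 genes with 1 region per gene. That background is low for well occupied genes, as given for the plasma proteins.

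Other lists without a called gene, apart from Onecut1 among the hepatocyte factors when the replicate block was used, were hepatocyte transcription factors (18 genes, median -0.09), growth and cytokine feedback (20 genes, median -0.09) and inflammatory signalling (17 genes, median -0.14). In these lists 6, 8 and 5 genes had an unadjusted p below 0.05 in limma, beside 908 of all 16568 genes with 1 region per gene. The same limit on this background holds here. Hnf4a and Rxra, which set the identity of hepatocytes, read 10.25 and 10.11 against 10.06 and 10.09 and 9.77 and 9.73 against 9.62 and 9.31. Il1r1, the interleukin 1 receptor, read 10.22 and 10.52 at the peak, 9.24 and 9.48 at the nadir and 8.18 and 7.70 in VEH, so that it stood above vehicle in both groups, but its change of 1.01 ± 0.31 was not called (limma adjusted p = 0.383).

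Igfbp1, which binds insulin-like growth factors in blood, read 11.01 and 11.10 against 9.33 and 9.93 (limma adjusted p = 0.0527). Igf1 itself read 9.94 and 10.28 at the peak, 8.99 and 8.23 at the nadir and 10.63 and 10.42 in VEH (limma adjusted p = 0.109), so that, as for Insig1, the nadir was the lowest of these groups. Apob, the structural protein of lipoproteins, read 9.88 and 10.49 against 11.20 and 11.32 (limma adjusted p = 0.193).

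**Figure D2:**
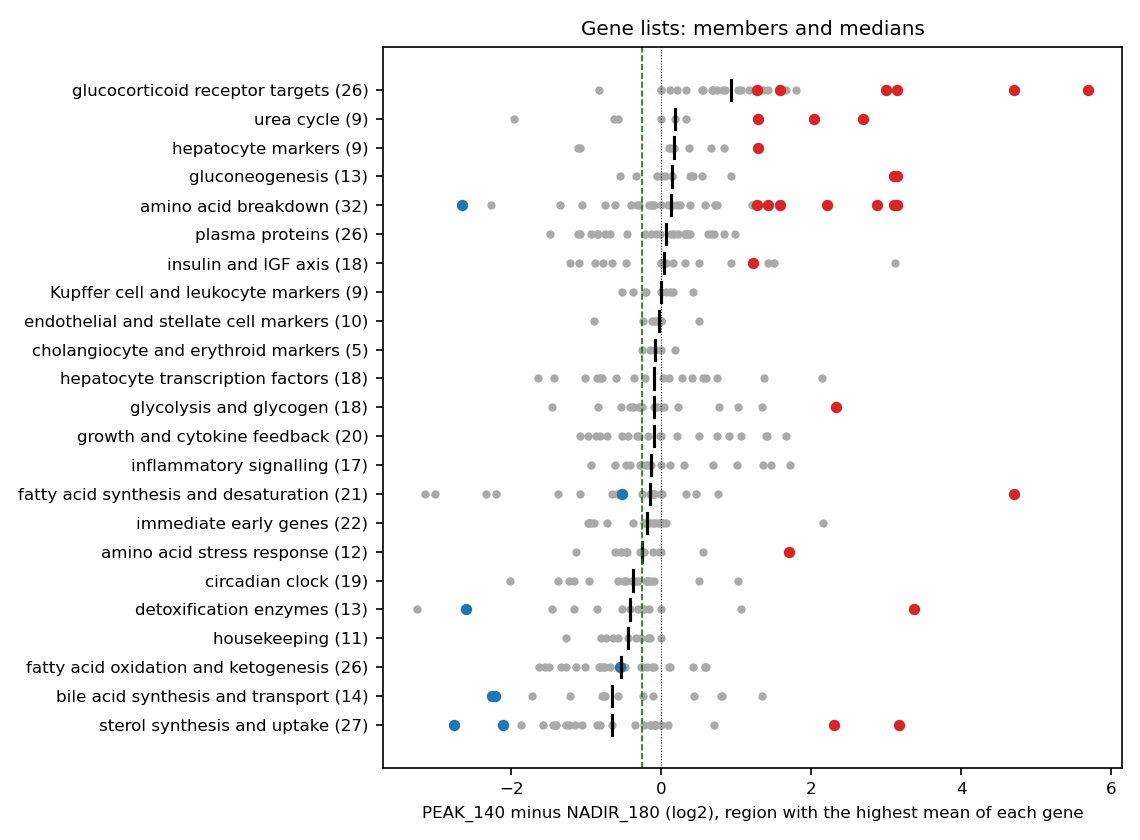
Change from NADIR_180 to PEAK_140 (log2, horizontal axis) of each member of 23 gene lists, with the number of members tested in brackets; red and blue mark genes called higher and lower at PEAK_140, grey those not called, black bars list medians and the green dashed line the median of -0.26 over genes at or above the median of mean values. Each gene is drawn at its region with the highest mean, so that Gpam and Acsl1, called in another region, lie near the centre, and the glucocorticoid receptor targets have the highest median at 0.93.

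VEH served as the level without hormone, and the called genes at the nadir lay nearer to it than to the peak. Relative to VEH the median of the 43 higher genes was 2.00 at PEAK_140 and -0.30 at NADIR_180, and that of the 41 lower genes was -2.71 and -0.21. The NADIR_180 mean was closer to the VEH mean than to the PEAK_140 mean at 43 of 43 higher and 41 of 41 lower genes, and it lay within 1 of VEH on the log2 scale at 36 and 37. Both nadir libraries lay below both VEH libraries at 19 higher and 20 lower genes, above them at 8 and 4, and overlapped them at 16 and 17. Shares over all genes tested were not computed for these counts. The called genes were chosen for a large gap between peak and nadir, which favours a nadir nearer to VEH than to the peak. Because the comparisons also share libraries, these counts are descriptions and were not tested.

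At the higher genes CONS_140 and CONS_180 stood at medians of 2.09 and 1.68 above VEH, and CONS_180 was on the PEAK_140 side of the midpoint between peak and nadir at 40 of 43. At the lower genes the medians were -0.73 and -1.16, and CONS_180 was on the PEAK_140 side at 8 of 41. The midpoint came from the same peak and nadir libraries that chose these genes. Shares over all genes were not computed for these counts, which were not tested. Klf12, one of the lower genes, read 6.46 and 5.78 in CONS_140 and 5.80 and 4.84 in CONS_180. Cxcl10 was an exception among the higher genes, since it read 3.63 and 2.44 in CONS_140 and 2.48 and 2.62 in CONS_180, beside 3.45 and 2.92 in VEH.

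**Figure D3:**
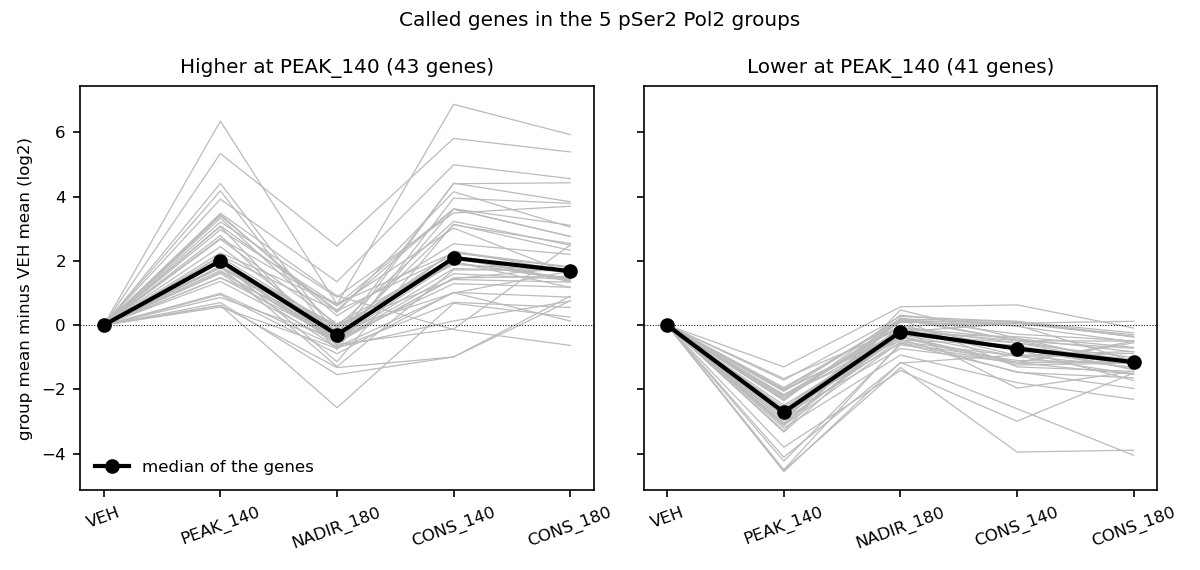
Mean pSer2 Pol2 value of each called gene in the 5 groups minus its VEH mean (log2, vertical axis; 2 libraries per group), with genes as grey lines and their median in black, for the 43 genes higher (left) and the 41 lower (right) at PEAK_140. The NADIR_180 median lies at -0.30 and -0.21, whereas the CONS_180 median lies at 1.68 on the left and -1.16 on the right.

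Whether the change from 140 to 180 min depended on the infusion pattern was tested as a difference of differences. In the constant infusion the median of CONS_140 minus CONS_180 was 0.43 at the higher genes, 0.38 at the lower genes and 0.16 over all genes. The 2 changes differed at 11 genes, or 0.0664% of genes (limma), and at 43 genes with the replicate number as a block. All 11 were among the genes called between peak and nadir, 6 higher and 5 lower at PEAK_140. The test of the difference contains the same peak and nadir libraries, so that this overlap is partly built in.

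Lpin1 and Got1 changed little between the times of the constant infusion. Lpin1 read 11.33 and 10.86 in CONS_140 and 11.32 and 10.92 in CONS_180, and Got1 10.71 and 10.48 in CONS_140 and 10.71 and 10.47 in CONS_180. The differences of their changes were 4.73 ± 0.67 and 3.10 ± 0.45 (limma adjusted p = 0.0388 and 0.0419). Insig1 differed by 2.75 ± 0.38. At 3 genes the constant infusion moved the other way, with lower values at 140 than at 180 min. Hacl1 read 8.27 and 7.99 in CONS_140 and 10.90 and 10.57 in CONS_180, and the difference of its changes was 5.16 ± 0.49 (limma adjusted p = 0.00187). LOC299282 and Serpina3c did likewise, with differences of 4.13 ± 0.35 and 3.69 ± 0.35.

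Of the genes lower at the peak, Klf12, Insig2, Ces1f, Cyp2a1 and Hal differed by -4.56, -3.44, -3.31, -3.17 and -3.14 (limma adjusted p of 0.0152 to 0.0439). In the constant infusion each of the 5 read slightly higher at 140 than at 180 min, by 0.38 to 0.80. This count rests on single libraries of the constant infusion: it was 0 without CONS_140 replicate 1, without CONS_180 replicate 1 or without CONS_180 replicate 2, and 3512 without CONS_140 replicate 2.

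**Figure D4:**
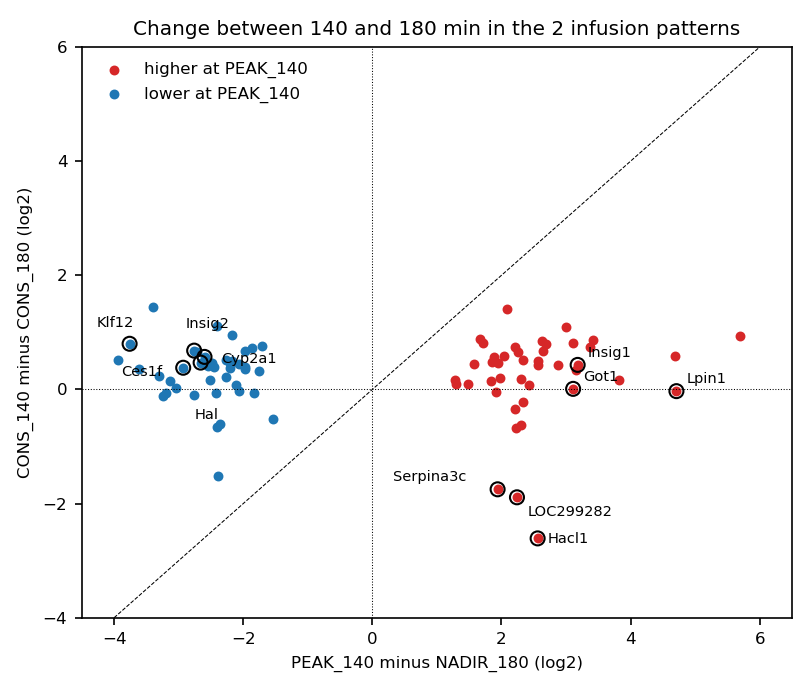
Change from 180 to 140 min in the constant infusion (CONS_140 minus CONS_180, vertical axis) against that in the pulsatile infusion (PEAK_140 minus NADIR_180, horizontal axis), both log2, for the 43 genes higher (red) and 41 lower (blue) at PEAK_140; the dashed line marks equal change and open circles the 11 genes whose changes differed. Most points lie near 0 on the vertical axis, and Hacl1, LOC299282 and Serpina3c lie between -2.61 and -1.75.

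GR ChIP from the same study gave a separate readout of receptor binding. The authors' list of GR peaks held 3210 peaks at PEAK_140 and 73 at NADIR_180. A PEAK_140 peak lay within 50 kb of the TSS at 42 of 43 higher genes (97.7%, 95% Wilson interval 87.9% to 99.6%) and at 11 of 41 lower genes (26.8%, 15.7% to 41.9%), beside 18.8% of all genes tested and 26.7% of those at or above the median of mean values. Within 10 kb the counts were 32 of 43 and 4 of 41, or 74.4% and 9.76%. The share was 5.98% of all genes and 9.97% of those at or above the median of mean values, near that of the lower genes. The remaining higher gene was Zfp354a, a zinc finger gene, whose nearest peak was 68216 b upstream. The median distance was 3.52 kb for higher and 132 kb for lower genes. It was 242 kb for all genes and 158 kb for those at or above the median of mean values. The intervals cover counting error only, and genes in clusters share peaks.

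Of the 73 NADIR_180 peaks, none lay within 50 kb of a higher or a lower gene (0 of 43 and 0 of 41), as for all but 22 of the 16568 genes. At the nearest GR site of the 42 higher genes the median GR value (log2) was 5.67 at PEAK_140, 1.46 at NADIR_180, 5.25 in both CONS groups and -0.05 in VEH. At the 11 lower genes with a site the medians were 3.84, 0.87, 4.12, 3.92 and -0.05. These sites came from the PEAK_140 peak list, which fixes that GR was high there, so the order of peak and nadir is a description. At Tat, whose GR site is 2519 b upstream, GR read 6.34 and 6.13 at the peak and -0.46 and -0.29 at the nadir. At the Upp2 promoter, with the GR peak centred 71 b upstream of the TSS in rn6, GR read 5.6 and 5.01 against 0.76 and -0.41, and pSer2 Pol2 7.82 and 7.92 against 6.08 and 5.46.

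Of the called genes, 32 higher and 31 lower ones matched a RefSeq promoter by symbol. The hexamer TGTTCT, searched on both strands, occurred in 3 (9.38%) and 2 (6.45%) of these promoters, beside 17.1% of all 27457. The core ACANNNTGT occurred in 5 (15.6%) and 4 (12.9%), beside 5.62% of all. The full palindrome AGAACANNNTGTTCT, which contains both, was found in 0 and 0. These matches describe letters in the sequence and not sites of binding.

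Messenger RNA was measured by RNA-Seq at 180 min, the time of the nadir, in 3 libraries each after pulses of CORT (PULS CORT) and of vehicle (PULS VEH). Of the 41 higher genes with mRNA data, 34 had more mRNA after CORT and 0 had less (edgeR, adjusted p below 0.05 and above 1.5-fold), or 82.9% against a background of 1.79% of 14092 genes. Of the 39 lower genes 9 had less mRNA and 0 had more, or 23.1% against 2.44%. Among the 7631 genes at or above the median of mean pSer2 Pol2 values, the shares were 2.69% and 2.24%. The median mRNA change was 1.37 for higher and -0.24 for lower genes.

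Lpin1 mRNA was 819, 638 and 837 CPM (reads scaled to library size) after CORT and 88.9, 76.1 and 112 after vehicle (log2 change 3.05, edgeR adjusted p = 4.05e-06), at a time when its pSer2 Pol2 lay in the vehicle range. Tdo2 mRNA was 2800, 2320 and 2430 CPM against 558, 469 and 730. Insig1 differed from these, at 237, 280 and 184 CPM against 100, 47.2 and 212 (edgeR adjusted p = 0.206), with overlapping libraries.

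Among the lower genes, Klf12 mRNA was 575, 674 and 531 CPM against 1430, 1770 and 1350 (log2 change -1.35, edgeR adjusted p = 0.0103). Gk mRNA was 302, 269 and 314 CPM against 798, 619 and 582 (edgeR adjusted p = 0.000245). Hal was 246, 220 and 227 CPM against 264, 202 and 187, which overlap, as they do for Insig2 at 193, 245 and 235 against 411, 193 and 257. Per1, whose pSer2 Pol2 difference between peak and nadir was not called, had 31, 24.5 and 20.6 CPM against 3.26, 2.08 and 6.22 (edgeR adjusted p = 3.29e-05).

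**Figure D5:**
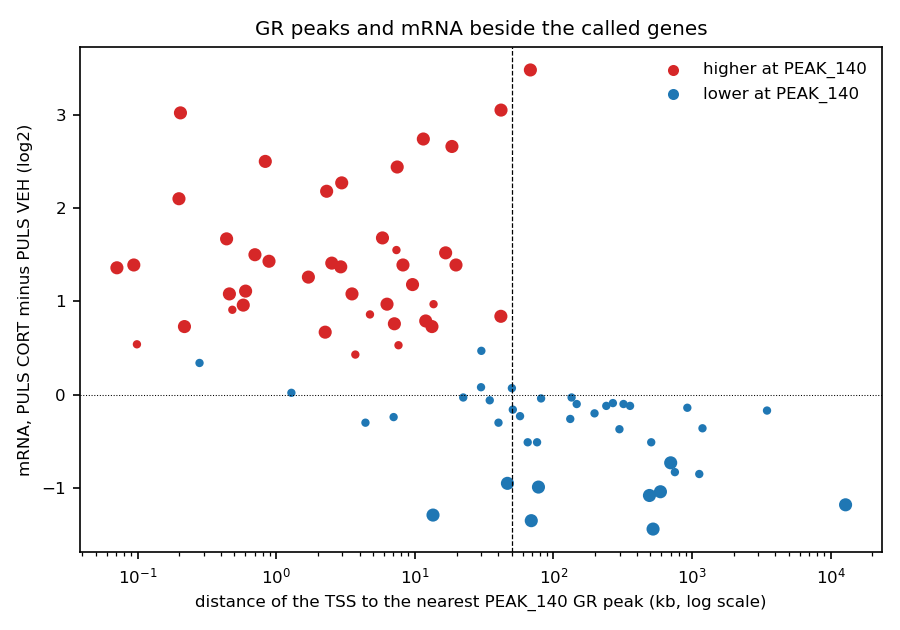
mRNA change after pulsatile CORT against vehicle at 180 min (log2, vertical axis) against the distance of the TSS to the nearest PEAK_140 GR peak (kb, log scale, horizontal axis) for genes higher (red) and lower (blue) at PEAK_140, with large points for genes called in mRNA and a dashed line at 50 kb. Red points lie left of the line except for Zfp354a, and the 34 large ones lie above 0, whereas the 9 large blue points lie below 0.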

How the data were processed

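Liver pSer2 Pol2 was measured in 10 ChIP libraries (2 per group), with GR ChIP peaks and RNA-Seq used beside them. The members and gene lists were chosen with earlier results of these data known. The authors deposited log2 values per coding region and library, made with HOMER 4.9.1 and DESeq2 after trimming with Trimmomatic 0.36 (submitters' processing notes; rn6), with input subtracted. Their fold change, ratio and p-value columns for their own comparisons were not used. GR values were deposited on a log2 scale as well, and their normalization is described differently in the methods (tags in binding regions) and in the file header (total tags). RNA was deposited by the authors as counts per Ensembl gene (STAR, featureCounts 1.6.2, Rnor_6.0); the counting of strand is not given in the sources used here, and 3956379 to 7777219 reads were counted per library.

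pSer2 Pol2 was fitted with limma 3.58.1 (R 4.3.3) over all 10 libraries with a variance trend, and Benjamini-Hochberg adjustment ran over 38315 regions. Of these calls 184 were regions (93 higher, 91 lower), 26844 rows of the table repeat the coordinates of another row, and a gene was counted once by its called region of greatest change. RNA counts above 10 reads over 12 libraries were tested with edgeR 4.0.16 (TMM, quasi-likelihood). List medians use the region with the highest mean per gene. Named genes were the 15 greatest changes each way, called list members, genes of the time by pattern difference, genes the study discusses and up to 2 members of each list without a call; Fkbp5, Pck1, Otc and further called genes were added after their values were seen. A lower gene whose symbol became a date in the table is not named, and some items withheld for evaluation are not reported here. The fits were tested on simulated data.

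The labels number the replicates, the design text describes 2 independent ChIP experiments, and deviations of same-numbered pSer2 Pol2 libraries correlated in all 6 pairs of CORT groups (0.15 to 0.55), so they were treated as paired in the fit with the replicate block. PEAK_140 replicate 2 has a library number apart from the other pulsatile libraries. With 2 libraries per group p-values rest on few samples. Promoters were taken from RefSeq (GRCr8), and positions of GR peaks and regions are in rn6. Figures were drawn with matplotlib 3.10.9 (Python 3.11.15).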

Additional observations from a re-analysis of the deposited data

Results flagged for a closer look

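At 11 genes the change between 140 and 180 min differed between pulsatile and constant infusion by a test of the difference itself. The pulsatile minus the constant change (log2, limma with Benjamini-Hochberg adjustment) was 5.16 at Hacl1, 4.73 at Lpin1, 4.13 at LOC299282, 3.69 at Serpina3c, 3.10 at Got1 and 2.75 at Insig1. It was -3.14 at Hal, -3.17 at Cyp2a1, -3.31 at Ces1f, -3.44 at Insig2 and -4.56 at Klf12. Hacl1, LOC299282 and Serpina3c had lower values at 140 than at 180 min of constant infusion, and at the other 8 the constant infusion changed by less than 1 on the log2 scale.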

How the results depend on the processing

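Of 84 genes called between PEAK_140 and NADIR_180, the fit with a replicate block called 117 (51 higher, 66 lower) and kept all 84. Among list members it added Myc, Fasn, Kmo, Foxo3 and Onecut1, and the block changed no other list call. It also gave 43 genes for the pattern difference (11 without it) and 638 for mRNA, where replicates were not paired (596 without it). The count was 0 with only the 4 libraries, with or without a replicate block (8552 regions at unadjusted p below 0.05 with it, 5134 without), 51 with VEH left out (36 higher, 15 lower), 210 after median centring, 231 after quantile normalization, 368 with replicate block and centring, 36 at an adjusted p below 0.01, 152 among regions at or above the median of mean values and 37 over all regions. Leaving out 1 library gave 1 to 100 genes, with 35 of the 100 shared; the lone library was assumed to vary like the other groups. Testing identical coordinates once, chosen after seeing the data, gave 89. The pattern difference gave 123 genes after centring, 26 with no variance trend, 5 with VEH left out and 0 to 3512 with 1 library left out (3 without PEAK_140 replicate 1, 2 without NADIR_180 replicate 1 or 2). mRNA calls fell to 336 to 482 with 1 library left out, and DESeq2 gave 598. With merged GR regions 43.9% of lower and 22.7% of all genes lay within 50 kb of a site. No called gene changed sign in a setting that tested its region (49 of 84 genes with 1 region per gene, 69 with identical coordinates tested once, 84 in the others). Uncalled values near 0 did: with 1 library left out Slc37a4 ranged from -0.06 (without PEAK_140 replicate 1; -0.01 without NADIR_180 replicate 1) to 0.16, and Cd163 from -0.02 (without NADIR_180 replicate 1) to 0.88, and Hnf4a was -0.14 after quantile normalization. The causes were not tested. With 2 libraries per group and values drawn towards the mean at few tags, changes of weakly occupied genes were not detectable at this depth.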
